A study of Bos taurus with 8 samples.

Results

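Polycomb proteins repress developmental genes by modifying histones, and the counts of 10 of their genes (EZH1, EZH2, SUZ12, EED, JARID2, MTF2, RNF2, RING1, BMI1 and PCGF6) were followed in bovine embryonic stem cells (bESCs). The 10 were chosen by name, as subunits of Polycomb repressive complex 1 or 2 (PRC1 and PRC2), out of 32640 genes listed in the count table, and all 10 passed the filter on low counts. Lines A, C, D and E, 4 in all and XX in genotype, were grown in 5% O2, first on MEF (irradiated mouse embryonic fibroblasts, a feeder layer) and then in feeder-free conditions on vitronectin, and RNA of each line was sequenced once in each condition. Passages were 15 to 17 on MEF and 20 to 22 without feeders, so that passage, feeder cells and matrix changed together and cannot be told apart. The study's methods also mention sequencing batches, and the batch of each library is not stated in the sources used here. The lines came from early or full blastocysts, and which line came from which stage is not stated in the sources used here. All sample titles carry the same medium name, whereas the methods add Activin A for feeder-free culture only.

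PRC2 places methyl groups on lysine 27 of histone H3, through EZH2 or its paralog EZH1, which work only when bound to EED and SUZ12. PRC1 attaches ubiquitin to histone H2A through RNF2 (also called RING1B) or RING1, each paired with a PCGF protein such as BMI1 (PCGF4) or PCGF6. In embryonic stem cells the complexes are known for holding lineage genes silent but ready for use, and accessory subunits such as JARID2 and MTF2 bring PRC2 to its sites.

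Libraries held 44268717 to 54296425 counts on MEF and 49671478 to 102351560 in feeder-free conditions, where line D had the largest total. Levels are given as CPM, edgeR's library-size-scaled counts after TMM scaling. Defining markers of the labelled cells were present in all 8 libraries, with POU5F1 at 1807 to 2341 CPM on MEF and 1725 to 1907 CPM in feeder-free conditions. SOX2 was at 395 to 476 CPM on MEF and lower without feeders, at 333 to 352 CPM. Summed over 18 fibroblast markers, levels were 487 to 594 CPM on MEF and 294 to 1321 CPM in feeder-free conditions, so that the groups overlapped. COL1A1 made up a large part of that sum, at 292 to 383 CPM on MEF and 115 to 1033 CPM without feeders. Markers of low level, which the sum does not show, are given beside the other marker lists. Of the trophoblast and hypoblast markers, CDX2 had 0 counts in every library and GATA4 stayed at or under 0.0377 CPM, while the keratins of that list were present and higher without feeders, with values given beside the other marker lists. RNA was measured in bulk, so fewer cells that express a gene and less RNA per cell cannot be told apart. No subtraction of mouse feeder reads was added here, so counts on MEF may include such reads. Their part in any fall without feeders was not tested.

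No Polycomb member passed the test between feeder-free and MEF culture when lines were not paired. Of the 10 members, 0 passed an adjusted P-value under 0.05 in edgeR's quasi-likelihood test on condition alone, where 1.93 percent of 15744 genes passed in either direction, and 0.724 percent rose and 1.00 percent fell with a fold change of at least 1.5. At an unadjusted P-value under 0.05, 3 members (EZH1, MTF2 and RNF2) were lower and 0 were higher, against 11.4 percent and 10.2 percent of all genes. Log2 fold changes of feeder-free over MEF ranged from -0.45 (BMI1) to 0.25 (PCGF6), with a median of -0.15 over the members and of 0.01 over all genes tested. With line as a replicate block, so that each line was compared with itself, RNF2 and BMI1 fell and no member rose, where 8.12 percent of all genes passed as lower and 7.67 percent as higher. Both were close to the threshold and below a fold change of 1.5, the size that the study's methods require of a differentially expressed gene, a size at which 4.53 percent of all genes fell and 5.52 percent rose in that fit. By direction alone, 5 members were lower in 4 of 4 lines and 1 (EED) was higher, where 20.7 and 20.2 percent of all genes were.

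**Figure D1:**
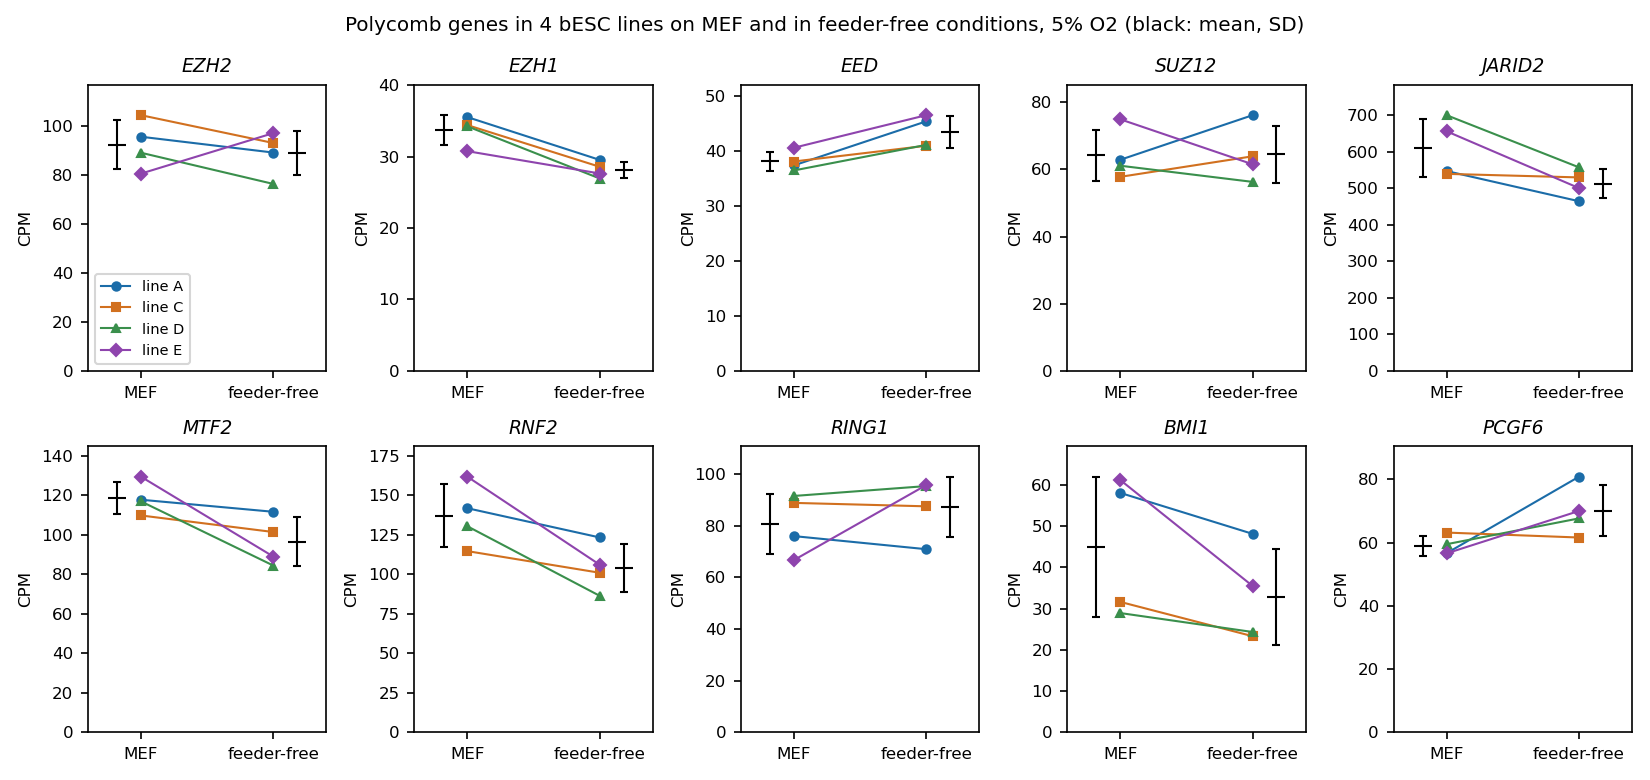
Level of each Polycomb gene (CPM, vertical axis from 0) on MEF and in feeder-free conditions, with the libraries of a line joined, and the mean and SD (n = 4) in black beside them. RNF2 and BMI1 slope down in 4 of 4 lines, and BMI1 lies higher in lines A and E than in lines C and D.

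Neither catalytic subunit of PRC2 passed the test. EZH2, the main H3 lysine 27 methyltransferase of dividing cells (chromosome 4 of ARS-UCD2.0, 112024328 to 112081434), had 95.8 CPM in line A, 105 in C, 89.2 in D and 80.7 in E on MEF. In feeder-free conditions it had 89.3 CPM in line A, 93.2 in C, 76.5 in D and 97.3 in E. The groups overlapped, with line E higher and the other lines lower without feeders. The log2 fold change of EZH2 was -0.06 (SE, the standard error, 0.12, edgeR adjusted p = 0.847), and its 95% interval as a change in level ran from -20.6 to 16.6 percent. EZH1, the paralog that is prominent in cells that have stopped dividing (chromosome 19, 42754605 to 42786906), had 35.5 CPM in line A, 34.4 in C, 34.2 in D and 30.8 in E on MEF. Without feeders it had 29.5 CPM in line A, 28.6 in C, 26.9 in D and 27.6 in E. All 4 feeder-free libraries lay below all 4 on MEF, as they did for 8.36 percent of all genes. EZH1 had 33.7 ± 2.06 CPM on MEF and 28.2 ± 1.13 CPM in feeder-free conditions (SD, n = 4), a log2 fold change of -0.26 (SE 0.11, edgeR adjusted p = 0.197, 0.148 with the replicate block). The difference did not pass after adjustment over all genes.

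The structural core of PRC2 showed no difference past the threshold either. EED, which binds the methylated histone tail and activates the enzyme (chromosome 29, 9265439 to 9295990), had 37.4 CPM in line A, 38.1 in C, 36.5 in D and 40.6 in E on MEF. In feeder-free conditions its level was 45.4 CPM in line A, 41.0 in C, 41.1 in D and 46.5 in E. EED was the member whose feeder-free libraries all lay above all those on MEF, an arrangement found in 6.21 percent of all genes. Its log2 fold change was 0.19 (SE 0.10, edgeR adjusted p = 0.326, 0.264 with the replicate block). SUZ12, which holds the complex together (chromosome 19, 18156522 to 18196245), had 64.2 ± 7.48 CPM on MEF and 64.5 ± 8.41 CPM in feeder-free conditions (SD, n = 4). Lines A and C were higher without feeders, at 76.2 and 63.9 CPM against 62.9 and 57.8, and lines D and E were lower, at 56.3 and 61.5 CPM against 61.1 and 75.0. The 95% interval of the SUZ12 difference ran from -18.2 to 23.3 percent, and leaving out 1 library could turn its sign.

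The accessory subunits JARID2 and MTF2 were each lower without feeders in 4 of 4 lines, and neither passed after adjustment. JARID2 (chromosome 23, 41484698 to 41715733), which recruits PRC2 in embryonic stem cells, had 547 CPM in line A, 539 in C, 699.8 in D and 656 in E on MEF. Feeder-free libraries had 464 CPM in line A, 529.5 in C, 557 in D and 500.3 in E. The lowest MEF library, that of line C, lay below the highest feeder-free one, that of line D, so the groups overlapped. JARID2 had a log2 fold change of -0.25 (SE 0.13, edgeR adjusted p = 0.319). It overlaps the annotated gene LOC112443921, and since the strand used in counting is not stated, its counts are less certain. MTF2 (chromosome 3, 50329930 to 50402928), a Polycomb-like protein that binds CpG-rich DNA, had 118 CPM in line A, 109.8 in C, 117 in D and 129 in E on MEF. Without feeders MTF2 had 112 CPM in line A, 101 in C, 84.4 in D and 88.9 in E. Lines A and C had log2 ratios of -0.08 and -0.11, and lines D and E of -0.47 and -0.54. The fitted log2 fold change of MTF2 was -0.29 (SE 0.12, edgeR adjusted p = 0.198, 0.113 with the replicate block).

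Of the ubiquitin ligases of PRC1, RNF2 fell with lines paired and RING1 passed in neither fit. RNF2, the ligase that provides most H2A ubiquitin in embryonic stem cells (chromosome 16, 66079569 to 66124320), had 142 CPM in line A, 115 in C, 130.4 in D and 162 in E on MEF. Its feeder-free levels were 123 CPM in line A, 101 in C, 86.4 in D and 106 in E. RNF2 was lower in 4 of 4 lines, more so in D and E (log2 ratios -0.59 and -0.61) than in A and C (-0.20 and -0.18), and the groups overlapped. On condition alone the log2 fold change was -0.40 (SE 0.15, edgeR adjusted p = 0.161). With the replicate block RNF2 fell by 0.40 on the log2 scale (SE 0.12, edgeR adjusted p = 0.0483). That call was lost with RLE size factors in place of TMM (0.0547 in edgeR's paired fit) and without line C, D or E (0.101, 0.247 and 0.121), while without line A it held at 0.0479. RNF2 spans the annotated microRNA gene MIR12008.

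RING1, the paralog of RNF2 (chromosome 23, 7395562 to 7399419), had 75.9 CPM in line A, 88.8 in C, 91.4 in D and 66.6 in E on MEF. In feeder-free conditions it had 70.9 CPM in line A, 87.4 in C, 95.3 in D and 95.7 in E. Lines D and E were higher without feeders and lines A and C lower, and the difference was within the spread between lines. RING1 had a log2 fold change of 0.11 (SE 0.15, edgeR adjusted p = 0.711), with a 95% interval from -13.7 to 35.6 percent.

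BMI1 and PCGF6 are alternative PCGF subunits of PRC1. BMI1, a subunit of the canonical form that also carries CBX and PHC proteins (chromosome 13, 23430912 to 23441040), had 58.0 CPM in line A, 31.6 in C, 28.9 in D and 61.2 in E on MEF. Without feeders BMI1 had 48.1 CPM in line A, 23.3 in C, 24.3 in D and 35.5 in E. Lines A and E were above lines C and D in both conditions, and each line was lower without feeders than on MEF. Because the lines lay far apart, the fit on condition alone gave a log2 fold change of -0.45 with a SE of 0.31 (edgeR adjusted p = 0.450). In the fit with the replicate block BMI1 fell by 0.44 on the log2 scale (SE 0.13, edgeR adjusted p = 0.0466). Adjusted p was 0.0535 in the paired edgeR fit with RLE size factors, and 0.0646 without line A, 0.155 without C, 0.114 without D and 0.113 without E.

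PCGF6, which belongs to a variant PRC1 that silences germline genes in embryonic stem cells (chromosome 26, 23907907 to 23939824), had 56.7 CPM in line A, 63.2 in C, 59.5 in D and 56.6 in E on MEF. Its level was 80.9 CPM in line A, 61.6 in C, 67.7 in D and 70.0 in E without feeders. Line C was slightly lower and the other lines were higher. PCGF6 had the largest positive log2 fold change of the members, 0.25 (SE 0.11, edgeR adjusted p = 0.243, 0.199 with the replicate block), which did not pass.

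Marker genes of the cells the cultures could hold were examined beside these values. Summed over 13 markers of cycling cells, levels were 3452 to 4482 CPM on MEF and 3365 to 3893 CPM in feeder-free conditions, and 0 of the 13 passed on condition alone, while 1 rose and 1 fell with the replicate block. With the replicate block 7.67 percent of all genes rose and 8.12 percent fell. The 13 pluripotent cell markers summed to 6618 to 7632 CPM on MEF and 5919 to 6822 CPM without feeders. Among them 2 rose (EPCAM and PRDM14) and 5 fell (SOX2, SALL4, LIN28B, OTX2 and ZIC2) with the replicate block. Of the fibroblast markers, 15 were tested, and 2 rose (COL3A1 and POSTN) and 2 fell (COL1A2 and PRRX1) with the replicate block. COL1A2 fell by 4.35 on the log2 scale, from 2.71 ± 2.21 to 0.157 ± 0.187 CPM (SD, n = 4, edgeR adjusted p = 0.00166). PRRX1 fell by 4.15, from 1.84 ± 0.871 to 0.175 ± 0.288 CPM (SD, n = 4, edgeR adjusted p = 0.00759). COL3A1 and POSTN rose by 2.53 and 2.77. Whether any of these counts came from feeder cells was not tested. The 13 trophoblast and hypoblast markers summed to 722 to 1245 CPM on MEF and 787 to 3049 CPM without feeders, with 3 higher and 1 lower of 9 tested in the paired fit. The 3 were the keratins KRT7, KRT8 and KRT18 of simple epithelia, which rose by 1.46, 0.74 and 0.98 on the log2 scale (adjusted p = 0.0129, 0.0256 and 0.0164 from edgeR), and the 1 was GATA2. Of these 4 lists, 1 pluripotent cell marker passed on condition alone, as lower, where 1.18 percent of all genes did. It was SALL4, with a log2 fold change of -0.58 (edgeR adjusted p = 0.0426). The part of these markers in the Polycomb values was not tested.

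Between lines, 1 member passed, BMI1. A test of the 3 line coefficients with condition as a covariate asked whether a gene's level differed between lines by more than the libraries within lines did. BMI1 passed (edgeR adjusted p = 0.0106), the 1 member of 10 to do so, where 11.8 percent of all genes passed. Mean log2 CPM of BMI1 was 5.72 in line A, 5.54 in E, 4.77 in C and 4.73 in D. Lines C and D lay within the spread of their own libraries of each other, as did A and E, whereas the lower of the A and E libraries, 35.5 CPM, was still above the highest of C and D, 31.6 CPM. The call for BMI1 held without any 1 of the 8 libraries, at adjusted p of 0.00497 to 0.0475 from edgeR. The other members had adjusted p between lines of 0.339 (RNF2) to 0.935 (PCGF6) in the same edgeR test, and line means that spanned 0.12 to 0.35 on the log2 scale, against 0.99 for BMI1.

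Count ratios of partner genes within a library do not depend on scaling between libraries. Exon lengths were not used here, so a ratio is read only for how it differs between libraries, not as the amount of one transcript over another. The ratio of EZH2 to EZH1 counts was 2.70 in line A, 3.04 in C, 2.61 in D and 2.62 in E on MEF. It was 3.02 in line A, 3.26 in C, 2.84 in D and 3.52 in E without feeders, higher in 4 of 4 lines. The ratio of RNF2 to RING1 was lower without feeders in 4 of 4 lines, from 1.87 to 1.74 in line A, 1.29 to 1.15 in C, 1.43 to 0.907 in D and 2.43 to 1.11 in E. The ratio of BMI1 to PCGF6 was likewise lower in 4 of 4 lines, from 1.02 to 0.595 in line A, 0.501 to 0.378 in C, 0.486 to 0.360 in D and 1.08 to 0.507 in E. Over the lines, the mean log2 shift was 0.20 ± 0.15 for EZH2 over EZH1, -0.51 ± 0.48 for RNF2 over RING1 and -0.68 ± 0.33 for BMI1 over PCGF6 (SD, n = 4), given as descriptions with no test. EED over SUZ12 and JARID2 over MTF2 were higher in 3 of 4 lines each, with mean log2 shifts of 0.18 ± 0.25 and 0.05 ± 0.15 (SD, n = 4).

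**Figure D2:**
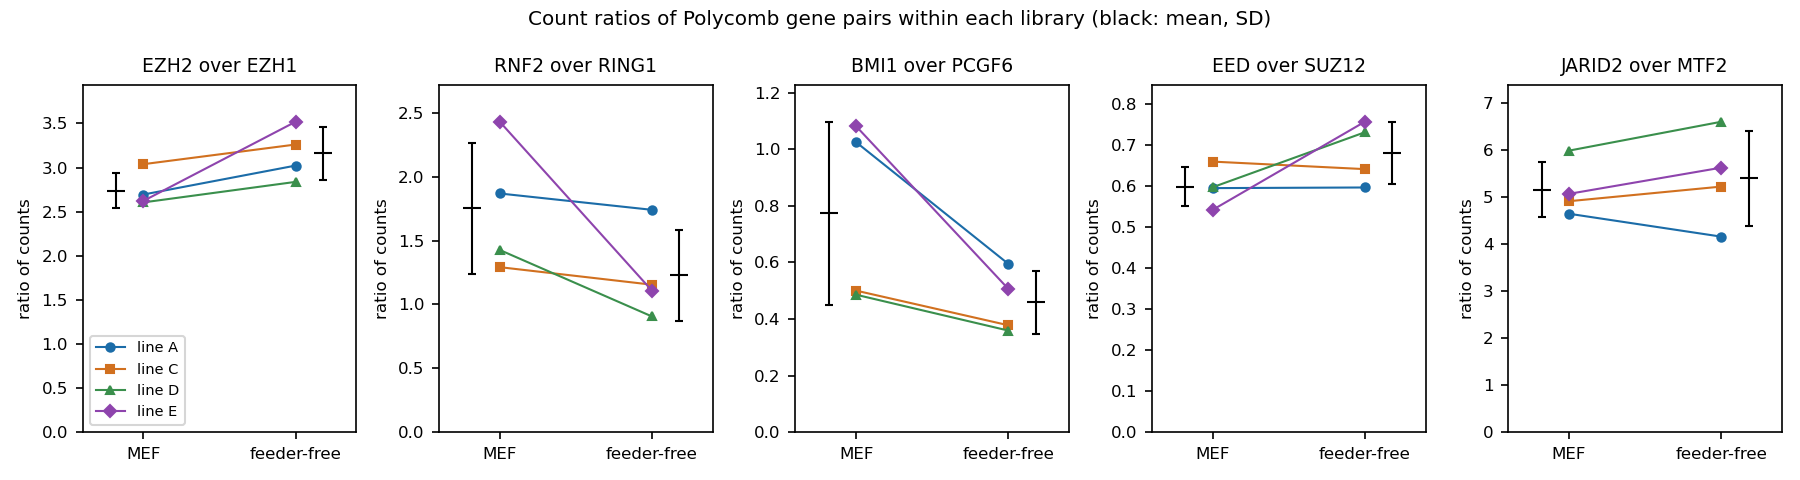
Ratio of the counts of paired Polycomb genes in each library (vertical axis from 0) on MEF and in feeder-free conditions, with the libraries of a line joined and the mean and SD (n = 4) in black. RNF2 over RING1 and BMI1 over PCGF6 go down in every line, and EZH2 over EZH1 goes up in every line.

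The members also differed in how alike their profiles were. As a measure of likeness, the root mean square difference between mean-centred log2 CPM profiles was taken over the 8 libraries. EED and PCGF6 were the closest members, at 0.10, followed by MTF2 and RNF2, at 0.11. Among 15743 other genes, the closest to RNF2 were UEVLD (0.04), ABI2 (0.06) and C9orf72 (0.06), and to EZH1 ZFYVE9 (0.05), NONO (0.05) and ENOX2 (0.06). RING1 was closest to MGRN1 (0.03), ISG20L2 (0.04) and ERCC3 (0.04), and EZH2 to ZNF783, FN3KRP and FBXL12 (0.06, 0.06 and 0.07). The median difference to all other genes was 0.38 to 0.45 for these 4 members. The genes named were picked as the closest, so their place below that median follows from the choice. Shared regulation was not tested.

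The rest of the Polycomb system held 41 further genes in a list of subunits, erasers and partners of erasers. Of these, 40 were tested and EZHIP had 0 counts in every library. On condition alone, 2 of the 40 fell and 0 rose, where 1.18 percent and 0.749 percent of all genes did, and both reached a fold change of 1.5. With the replicate block, 9 of the 40 fell and 2 rose, where 8.12 and 7.67 percent of all genes did. The median log2 fold change was -0.13 over the 40 genes, against 0.01 over all genes, and feeder-free libraries all lay below those on MEF for 9 of them and above for 0, against 8.36 and 6.21 percent of all genes. In the paired fit AUTS2, BCOR and KDM6B passed without any 1 line, and the other 8 did not pass without line C or without line D.

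KDM6B and BCOR were the genes that fell on condition alone. Counts on MEF may include mouse feeder reads, and their part in these falls was not tested. KDM6B, an enzyme that removes the methyl mark placed by PRC2 (chromosome 19, 27523921 to 27545276), had 252 CPM in line A, 214 in C, 223 in D and 263 in E on MEF. In feeder-free conditions it had 136 CPM in line A, 144 in C, 121 in D and 133 in E. The groups were far apart, and KDM6B fell by 0.83 on the log2 scale (SE 0.12, edgeR adjusted p = 0.0331, 0.0022 with the replicate block). Its relative KDM6A had a log2 fold change of -0.13 (edgeR adjusted p = 0.625). BCOR, a corepressor that joins PCGF1 in a variant PRC1 (chromosome X, 103315576 to 103434640), had 119 CPM in line A, 122 in C, 124 in D and 123 in E on MEF. Without feeders BCOR had 80.8 CPM in line A, 82.8 in C, 78.7 in D and 71.5 in E. The fall of BCOR was 0.64 on the log2 scale (SE 0.10), with adjusted p = 0.0331 from edgeR and 0.00525 with the replicate block. BCOR overlaps 2 uncharacterized annotated genes (LOC132344334 and LOC132344335), so its counts are less certain. On condition alone both calls were lost on leaving out any 1 library but that of line A without feeders, at adjusted p of 0.0674 to 0.116 from edgeR, and both passed in the paired fit without any 1 line. Few of all genes passed on condition alone in the fits where both calls were lost, as counted in the last section.

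Of other PRC1 subunits, KDM2B, AUTS2 and CBX6 fell and YAF2 rose with the replicate block, and PCGF1 and RYBP did not pass. None of the further PCGF genes or the PHC genes on the list passed in either fit. Of the CBX genes listed, only CBX6 passed, with lines paired. KDM2B, which guides the PCGF1 complex to CpG islands, had 134 ± 9.66 CPM on MEF and 97.1 ± 15.5 CPM in feeder-free conditions (SD, n = 4), and it fell by 0.48 on the log2 scale with the replicate block (edgeR adjusted p = 0.0208). PCGF1 itself had 6.12 ± 0.188 CPM on MEF and 6.13 ± 0.468 CPM in feeder-free conditions (SD, n = 4). RYBP, which replaces CBX proteins in variant PRC1, had a log2 fold change of -0.32, lower in 4 of 4 lines (edgeR adjusted p = 0.134, 0.0688 with the replicate block). Its homolog YAF2 rose by 1.09 on the log2 scale with the replicate block (edgeR adjusted p = 0.0417) at low levels, from 1.07 ± 0.729 to 2.16 ± 1.25 CPM (SD, n = 4). AUTS2, a partner of variant PRC1 that is linked to gene activation, fell from 107 ± 24.5 to 57.9 ± 22.8 CPM (SD, n = 4), by 0.94 on the log2 scale with the replicate block (edgeR adjusted p = 0.00288). CBX6, a reader of the PRC2 mark in canonical PRC1, was lower in 4 of 4 lines and fell by 0.57 in the same paired fit.

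**Figure D3:**
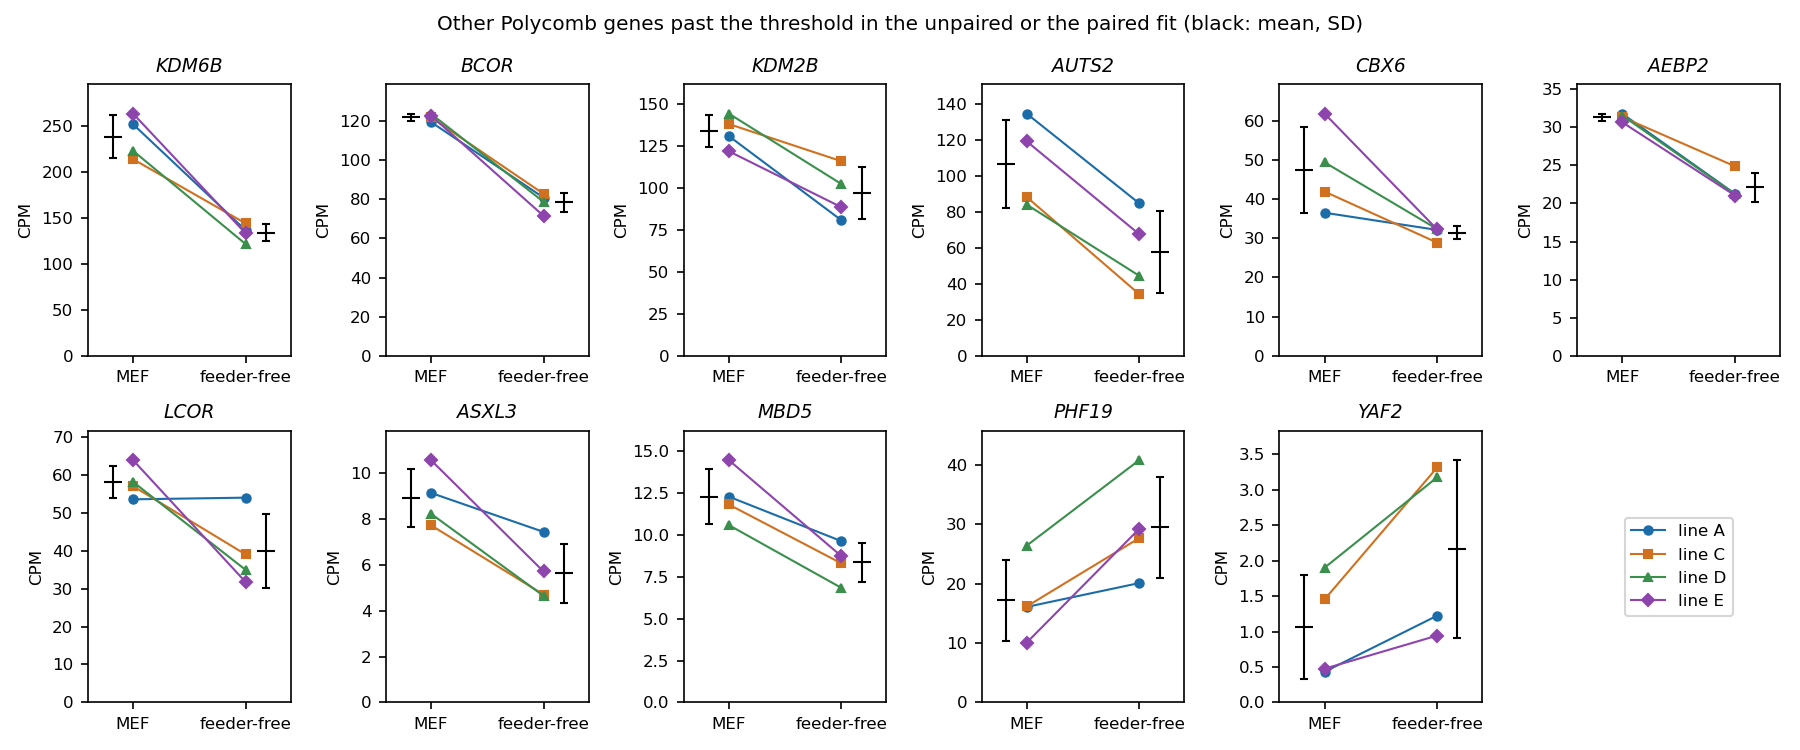
Level (CPM, vertical axis from 0) of the 11 further Polycomb genes that passed on condition alone or with the replicate block, on MEF and in feeder-free conditions, with the libraries of a line joined and the mean and SD (n = 4) in black. KDM6B, BCOR, KDM2B, CBX6, AEBP2, ASXL3 and MBD5 lie lower in every feeder-free library than in any on MEF, and PHF19 and YAF2 are the genes that go up.

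Accessory subunits of PRC2 moved in both directions. PHF19, a Polycomb-like protein related to MTF2, had 16.1 CPM in line A, 16.2 in C, 26.4 in D and 10.1 in E on MEF. It had 20.1 CPM in line A, 27.7 in C, 40.8 in D and 29.2 in E without feeders, higher in 4 of 4 lines with overlapping groups. PHF19 rose by 0.81 on the log2 scale with the replicate block (SE 0.19, edgeR adjusted p = 0.0204), while on condition alone it did not pass (0.175). AEBP2, which joins PRC2 together with JARID2, fell by 0.51 in the paired fit (SE 0.12, edgeR adjusted p = 0.0216), from 31.3 ± 0.480 to 22.1 ± 1.85 CPM (SD, n = 4). AUTS2, ASXL3, MBD5, RBBP4, LHX2, USP16, SOX2 and COL1A2 overlap other annotated genes, which makes their counts less certain. LCOR, whose locus also encodes a PRC2 accessory protein, fell by 0.57 (edgeR adjusted p = 0.04) and did so in 3 of 4 lines, with line A at 53.5 CPM on MEF and 54.0 CPM without feeders. EPOP had a log2 fold change of 0.57 at 1.48 ± 0.474 CPM on MEF and 2.20 ± 0.605 CPM in feeder-free conditions (SD, n = 4), which did not pass. The histone-binding proteins RBBP4 and RBBP7, shared with other complexes, had log2 fold changes of -0.21 and 0.30, lower and higher in 4 of 4 lines, and neither passed (adjusted p = 0.276 and 0.188 from edgeR).

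Erasers of PRC1's mark were represented by the BAP1 deubiquitinase, its partners and the deubiquitinase USP16. USP16 had a log2 fold change of -0.13, lower in 4 of 4 lines (edgeR adjusted p = 0.504). ASXL3 and MBD5, cofactors of BAP1, fell by 0.68 and 0.56 on the log2 scale with the replicate block (adjusted p = 0.0331 and 0.0369 from edgeR). Mean levels went from 8.92 to 5.63 CPM for ASXL3 and from 12.3 to 8.38 CPM for MBD5. Their relatives ASXL1, ASXL2 and MBD6 had means of 94.2, 110 and 21.3 CPM on MEF. None of these relatives passed in the paired fit (adjusted p = 0.307, 0.200 and 0.917 from edgeR). BAP1 itself had a log2 fold change of -0.0045, higher in 1 of 4 lines (edgeR adjusted p = 0.991). Of 9 genes listed as erasers of either mark or as partners of BAP1, KDM6A and KDM6B included, 1 (KDM6B) fell on condition alone. With the replicate block 3 fell, the eraser KDM6B and the BAP1 partners ASXL3 and MBD5, and 0 rose in either fit. Of all genes 1.18 percent fell on condition alone, and 8.12 percent fell and 7.67 percent rose with the replicate block.

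**Figure D4:**
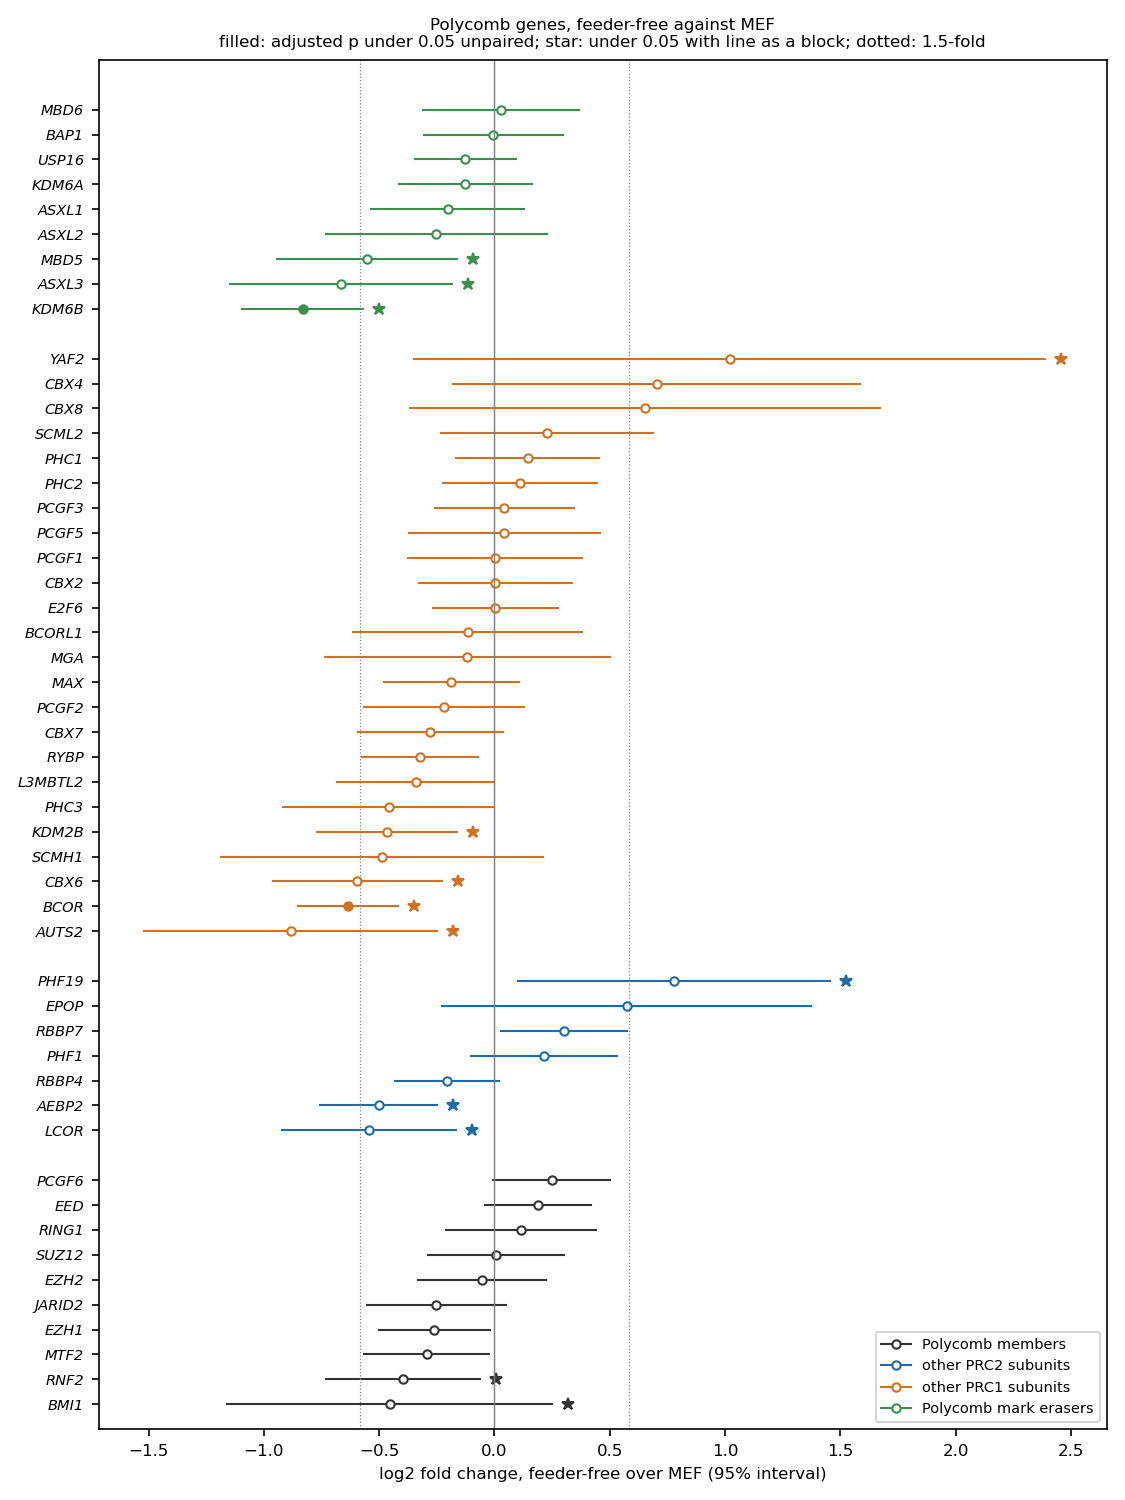
Log2 fold change of feeder-free over MEF with its 95% interval for the 10 members and 40 further Polycomb genes from edgeR's fit on condition alone. Filled points passed on condition alone (KDM6B and BCOR), stars mark genes that passed with the replicate block, and the 10 members lie between -0.45 and 0.25.

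Genes that textbooks name as Polycomb targets were mostly near 0 in both conditions. Of 35 such genes in the table, 19 had no library above 20 counts and 11 passed the filter, which keeps genes that are expressed in at least 1 condition. Over all genes listed, 15744 of 32640 passed that filter, so a low level is not particular to these targets. On condition alone 0 of the 11 passed (smallest adjusted p = 0.0747 from edgeR), where 1.93 percent of all genes did. With the replicate block 3 rose (CDKN2B, LHX2 and EOMES) and 2 fell (GATA2 and IRX3), where 7.67 and 8.12 percent of all genes did. LHX2, a homeobox gene of early forebrain, had 6.63 CPM in line A, 7.54 in C, 10.2 in D and 3.26 in E on MEF and 14.9, 28.6, 41.3 and 10.2 CPM in the same lines without feeders. It rose by 1.69 on the log2 scale with the replicate block (SE 0.17, edgeR adjusted p = 0.000834). EOMES, a gene of mesendoderm, rose by 1.61 and GATA2 fell by 1.45 in that fit, at 7.75 ± 1.58 and 0.421 ± 0.163 CPM in feeder-free conditions (SD, n = 4). IRX3, a homeobox gene, fell by 0.91 and was lower in 3 of 4 lines. LHX2 passed in the paired fit without any 1 line, EOMES not without A (adjusted p = 0.0835 from edgeR) or C (0.0553), GATA2 not without A (0.104), C (0.144) or D (0.191), and IRX3 not without A (0.103), C (0.151) or E (0.117).

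CDKN2B, a cell cycle inhibitor that BMI1 is known to repress, was seen mainly in line D. It had 0 counts in line A, 8 in C, 52 in D and 6 in E on MEF, and 0 in A, 154 in C, 1252 in D and 54 in E without feeders. CDKN2B rose by 3.59 on the log2 scale with the replicate block (SE 0.41, edgeR adjusted p = 0.0019), whereas on condition alone the log2 fold change was 3.57 (edgeR adjusted p = 0.231). Without the feeder-free library of line D the latter was 1.94 (edgeR adjusted p = 0.578), and without both libraries of line D the gene did not pass the filter. CDKN2A, its neighbour, did not pass the filter and is named after its values were seen, with 258 counts in line D and 4 to 36 in the other lines without feeders, and 4 to 10 counts on MEF. Scaled for depth, feeder-free CDKN2B was at 0 CPM in line A, 2.90 in C, 12.2 in D and 1.04 in E. BMI1 in the same libraries was at 48.1, 23.3, 24.3 and 35.5 CPM, and a link between the genes was not tested.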

How the data were processed

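The authors trimmed reads with Trimmomatic, aligned them to ARS-UCD2.0 with STAR, removed optical duplicates with Picard and alignments of MAPQ under 30 with samtools, and deposited raw counts per gene from featureCounts (Subread 1.6.2). Their methods describe a subtraction of mouse feeder reads, taken from MEF alone, from counts on MEF, and no such step was added here. Whether reads or pairs were counted is not given in the sources used here, and 71.9 percent of 36637 counts from 1 to 20 were even. Of 32640 genes, 3 had no values. Genes were matched by symbol to RefSeq (ARS-UCD2.0), from which coordinates come.

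Counts were fitted with edgeR 4.0.16 in R 4.3.3 (glmQLFit, glmQLFTest; filterByExpr, TMM) over 15744 genes, with Benjamini-Hochberg adjustment over all of them. The SE was taken as the absolute log2 fold change divided by the square root of the test's F statistic. Intervals at 95% came from that SE. Log2 CPM used a prior count of 2. The same lines grew in both conditions, so line letters pair the libraries: deviations from the condition mean correlated at 0.582 (A), 0.557 (C), 0.664 (D) and 0.421 (E). Within conditions no libraries were the same (smallest chi-square per degree of freedom 43.1 over 12 pairs). P-values measure the spread between these libraries.

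Members and lists were chosen with earlier results of these data known. Named were all members, listed genes called in either fit, the 2 largest log2 fold changes per list, and the 3 genes most like each catalytic subunit. Of the genes this rule names, 1 is not reported here. RBBP4, RBBP7, RYBP, PCGF1, KDM6A, BAP1, ASXL1, ASXL2, MBD6 and USP16 were named after their values were seen. Alternatives were RLE or no scaling, other filters, DESeq2 1.42.0, limma-voom (limma 3.58.1), the replicate block, a 1.5-fold threshold, and each library left out. The fits were tested on simulated counts.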

Additional observations from a re-analysis of the deposited data

Results flagged for a closer look

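Of 76 sets of 4 libraries, 3 had 1 library well apart from its set, and chance alone gives about 1 in 20, or 3.8. Line D without feeders was sequenced deepest, with a total of 102351560, whereas lines A, C and E without feeders had 49671478 to 51320214. AEBP2 was highest in feeder-free line C, at 4.64 log2 CPM against 4.40 to 4.41, and CBX6 was lowest in the same library, at 4.85 against 5.01 to 5.02.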

How the results depend on the processing

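The count of members that passed was 0 higher and 0 lower on condition alone, and it stayed so with RLE size factors, no scaling, no filter, at least 10 counts in every library, DESeq2, limma-voom, and without any 1 library. With the replicate block, a paired fit by line, 2 members passed as lower (RNF2 and BMI1), as with at least 10 counts in every library, and 0 with RLE size factors or no scaling. Settings that combine the block with another choice, and the thinning of the feeder-free library of line D, were added after the data were examined. Without 1 line in the paired fit, 0 to 1 members passed as lower. Of the further Polycomb genes, 0 passed as higher and 2 as lower on condition alone. DESeq2 passed 7 as lower, and the replicate block 2 as higher and 9 as lower, as it did with RLE size factors or at least 10 counts in every library. The block with no scaling gave 2 and 7, and with a fold change of at least 1.5 it gave 2 and 4. Leaving out 1 library gave 0 higher and 0 to 3 lower. Leaving out 1 line in the paired fit gave 0 to 1 higher, and 8 lower without line A, 3 without C, 3 without D and 6 without E. For these settings the cause was not tested. Over all genes, 118 were higher and 186 lower on condition alone, 85 and 92 with no scaling, 73 and 100 with no filter, 215 and 271 with at least 10 counts in every library, 884 and 875 in DESeq2, 1207 and 1279 with the replicate block, and, without 1 library, 265 and 251 without feeder-free line A and 0 to 1 and 0 to 5 without any other. Between lines 1865 of all genes passed, and 900 to 3379 under the alternatives. Thinning line D changed no count of members or further Polycomb genes. The direction of 3 members turned in settings that leave out a library or a line. For SUZ12 the log2 fold change, 0.01 with all libraries, was -0.0041 without MEF line A, -0.04 without MEF line C, -0.02 without MEF line D, -0.08 without feeder-free line A, and in the paired fit -0.0873 without line A and -0.0297 without line C, and over all single libraries left out it ran from -0.0831 to 0.0871. For EZH2 it was 0.0078 without MEF line C, 0.0111 without feeder-free line D and 0.00096 in the paired fit without line D, with a range of -0.119 to 0.0111 over single libraries left out, and for RING1 -0.0080 in the paired fit without line E. BMI1 passed between lines in all 13 alternatives run.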
